A study of Homo sapiens with 4 samples.

Results

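Cytosolic ribosomal protein genes, which encode the proteins of the ribosome outside mitochondria, were followed in PC3, a long-established line of human prostate cancer cells, with and without knockdown of METTL3. METTL3 is the catalytic subunit of the enzyme complex that writes N6-methyladenosine on messenger RNA. The members were the protein-coding genes of the deposited table whose symbol is RPL or RPS with a number, RPLP0 to RPLP2, or RPSA: 86 of 60544 genes. They comprised 46 genes of the large subunit, 31 of the small subunit and 9 paralogs, which are second gene copies such as RPL22L1. The name rule leaves out ribosomal genes with other symbols or suffixes, of which FAU, RACK1 and RPL36AL are described separately. The study holds 4 poly(A) RNA libraries from PC3 cells, 2 labelled shNC, taken here for the control, and 2 labelled sh812, taken for the METTL3 knockdown, as no further label exists. All cells were grown in the same RPMI-1640 medium with serum. The labels name a single construct per arm and do not say whether replicates were separate cultures, so the p-values measure the spread between these libraries, which may be technical.

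Each ribosome is built from ribosomal RNA and one copy of most of these proteins, and a growing cell devotes a large share of its messenger RNA to them. Most ribosomal protein mRNAs begin with a 5′ terminal oligopyrimidine (TOP) tract, a cytidine at the first base followed by an unbroken run of C and U. The tract is bound by LARP1 and places translation of these mRNAs under control of the mTOR kinase. Many of the genes also carry small nucleolar RNAs, guides for rRNA modification, in their introns.

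The starts of 14 members are printed to show the tract, from 20 bases before to 20 bases after the start in RefSeq's annotation of GRCh38.p14. The capitals mark the unbroken pyrimidine run that begins with a cytidine at the annotated start. The first 8 belong to genes that rose in the sh812 libraries.
RPLP0, chr12:120201092-120201131, minus strand: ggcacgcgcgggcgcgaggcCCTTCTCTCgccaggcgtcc
RPSA, chr3:39406700-39406739, plus strand: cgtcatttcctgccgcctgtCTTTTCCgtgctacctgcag
RPS24, chr10:78033843-78033882, plus strand: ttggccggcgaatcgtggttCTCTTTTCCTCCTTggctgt
RPL13A, chr19:49487588-49487627, plus strand: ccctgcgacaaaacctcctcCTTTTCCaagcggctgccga
RPL28, chr19:55385912-55385951, plus strand: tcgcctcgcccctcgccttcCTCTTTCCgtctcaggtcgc
RPS27, chr1:153990742-153990781, plus strand: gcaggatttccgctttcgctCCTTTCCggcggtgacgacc
RPS12, chr6:132814549-132814588, plus strand: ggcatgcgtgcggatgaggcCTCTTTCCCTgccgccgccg
RPS21, chr20:62387083-62387122, plus strand: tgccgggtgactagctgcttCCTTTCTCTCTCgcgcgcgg
The next 3 belong to subunit genes that did not pass the test, and their tracts are 8 to 19 bases long.
RPL24, chr3:101686699-101686738, minus strand: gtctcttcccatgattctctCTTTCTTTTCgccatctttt
RPL35A, chr3:197950170-197950209, plus strand: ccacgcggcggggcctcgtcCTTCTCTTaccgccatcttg
RPL39, chrX:119791611-119791650, minus strand: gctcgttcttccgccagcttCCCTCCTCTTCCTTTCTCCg
The last 3 belong to paralogs, of which RPL22L1 has a run of 6 bases and the others none.
RPL22L1, chr3:170870176-170870215, minus strand: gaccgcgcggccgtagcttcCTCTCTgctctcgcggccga
RPS27L, chr15:63157458-63157497, minus strand: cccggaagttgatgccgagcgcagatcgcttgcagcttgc
RPL7L1, chr6:42879596-42879635, plus strand: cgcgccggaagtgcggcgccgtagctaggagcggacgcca

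The RefSeq promoter table held a start for 69 of the 86 members. With a run of at least 5 bases on the transcript strand, and the start with the longest run where a gene had several, 48 of the 69 (69.6%) had a tract, against 1404 of all 27305 genes in the table (5.14%). The tract was found in 28 of 38 large subunit genes, 18 of 24 small subunit genes and 2 of 7 paralogs. Among members that rose it was found in 32 of 45 (71.1%), and among tested members that did not pass the threshold in 15 of 21 (71.4%). Both shares were close to that of all matched members, and a missing match says only that these letters do not follow this annotated start.

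Total counts per library ranged from 31450648 to 37041330. CPM is a count scaled to TMM-adjusted library size. METTL3 read 44.3 and 43.6 CPM in shNC and 7.66 and 8.75 CPM in sh812, a log2 fold change of -2.42 ± 0.11 (SE; edgeR adjusted p = 5.54e-14). The epithelial markers KRT8, KRT18, EPCAM and KRT19 lay between 69.3 and 450 CPM in every library. Some of them were higher in sh812: EPCAM read 69.3 and 77.0 against 98.5 and 101 CPM, and KRT18 read 139 and 169 against 186 and 194 CPM. KLK3, known to be low in this line, was at 0 counts in all 4 libraries. Of the markers of other cell types, PTPRC was at most 0.844 CPM, PECAM1 read 23.7 to 38.5 CPM and COL1A1 29.3 to 39.4 CPM. The part of these levels in the results below was not tested.

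Ribosomal protein mRNAs held 4.73% and 5.17% of all counts in shNC (replicates 1 and 2 in turn) against 5.67% and 5.64% in sh812. The large subunit held 2.82% and 3.06% in shNC against 3.34% and 3.33% in sh812. The small subunit held 1.87% and 2.07% against 2.29% and 2.27%. Both shares were thus higher in each sh812 library than in either shNC library, and the nearest libraries, shNC replicate 2 and sh812 replicate 2, were 5.17% and 5.64% for the members together. The paralogs held 0.0427% to 0.0436% in all 4 libraries, with the groups overlapping. In bulk RNA, a higher share can come from more of these transcripts in a cell or from fewer of the others, and these cannot be told apart here.

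Gene by gene, 82 of the 86 members passed the low-count filter, and 55 of them rose in sh812 at an edgeR adjusted p under 0.05, while 0 fell. Over all 16802 genes tested, 5.43% were called higher and 5.42% lower. At an unadjusted p under 0.05, 66 members were higher and 0 lower, against 11.9% and 12.9% of all genes. DESeq2 called 51 higher (4.72% of all genes) and 0 lower (4.1%), of which 49 were among the 55. Lost in DESeq2 were RPS12, RPS21, RPLP1, RPS29, RPS19 and RPS27A, named here because their calls ended, and gained were RPL37 (DESeq2 adjusted p = 0.0445) and RPS6 (0.0406). When libraries were scaled by their totals only, 3.34% of all genes were called higher and 7.9% lower, and 42 members were called higher and 0 lower. The median log2 fold change of the tested members was 0.22 (16.4% higher, quartiles 0.17 and 0.27), against -0.0056 over all genes tested. The called members ran from 13.2% to 32.3% higher, a range whose lower end depends on the threshold. The 4 members that did not pass the filter were the paralogs RPL10L, RPL3L, RPS4Y1 and RPS4Y2, all expressed mainly in the germline, muscle or from the Y chromosome.

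**Figure D1:**
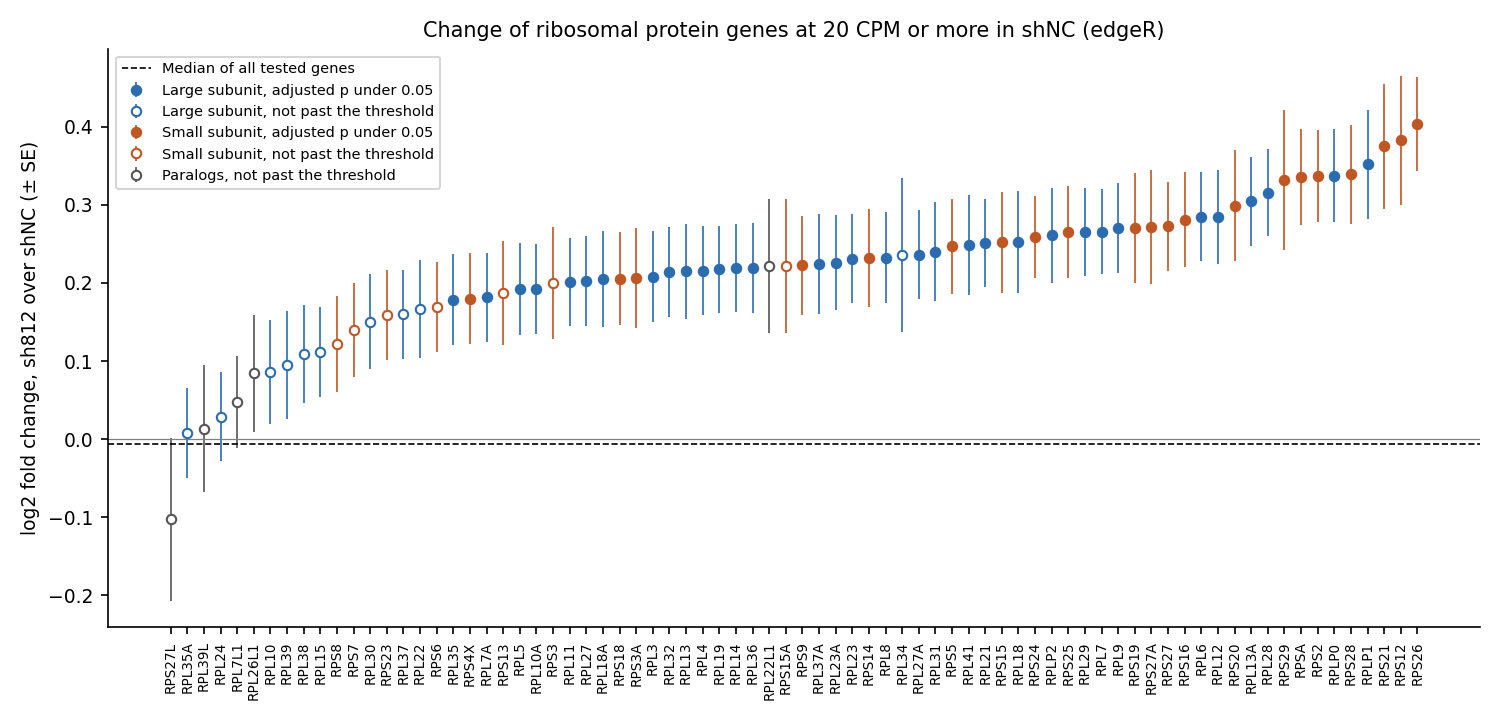
Log2 fold change, sh812 over shNC, of ribosomal protein genes at 20 CPM or more in shNC, with bars of ± 1 SE from edgeR. Filled points passed an adjusted p of 0.05 (all of them subunit genes), open points did not, and the dashed line is the median of all tested genes.

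Genes of both subunits rose. In the large subunit, 33 of 46 genes rose with a median log2 fold change of 0.22 over the 46, and in the small subunit 22 of 31 rose with a median of 0.25 over the 31. No paralog passed the threshold, and the median of the 5 tested was 0.048. Among the 72 subunit genes with at least 20 CPM in shNC, all 72 log2 fold changes were positive, from 0.0074 for RPL35A to 0.40 for RPS26. Their standard deviation across genes was 0.073 in the large subunit (n = 43) and 0.074 in the small subunit (n = 29). The standard errors of single genes ran from 0.052 (RPS24) to 0.098 (RPL34). They include differences between libraries that these genes share, so they are no yardstick for the spread across genes. No test of the difference between subunits was made.

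The stalk of the large subunit has 3 protein genes among the members. RPLP0, the scaffold of the stalk that recruits translation factors, had 2486 and 2859 CPM in shNC and 3383 and 3371 in sh812, a log2 fold change of 0.34 ± 0.060 (SE; edgeR adjusted p = 0.000544). Its 2 sh812 libraries agreed closely and lay above both shNC libraries, which differed more from each other. RPLP1, an acidic protein that sits on that scaffold, read 479 and 588 CPM in shNC and 677 and 684 in sh812 (log2 fold change 0.35 ± 0.069, edgeR adjusted p = 0.00169), a call that DESeq2 did not make (adjusted p = 0.108). RPLP2, its partner, named here for that role, read 472 and 536 against 609 and 599 CPM (0.26, adjusted p = 0.00689). In all 3 stalk genes the groups did not overlap, and shNC replicate 1 was the lowest library. Over all genes tested, 26.2% were higher in both sh812 libraries than in both shNC libraries. Genes named here and below for a small p or a large change tend to separate by that choice. Their separation is therefore no further support.

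RPL28, a large subunit protein that budding yeast lacks, read 726 and 765 CPM in shNC and 936 and 920.4 in sh812 (0.32 ± 0.056, adjusted p = 0.000523). Here the gap between the groups was wider than the difference within either. RPL13A, which outside the ribosome takes part in interferon-gamma control of translation, read 1227 and 1359 CPM against 1601 and 1593 (0.30, adjusted p = 0.00108). RPL6 read 1195 and 1315 against 1528 and 1529 CPM (0.28, adjusted p = 0.0019), and RPL7 read 1574 and 1671 against 1942 and 1959 (0.27, adjusted p = 0.00235). RPL8, the large subunit gene with the second highest level per length, was 2105 ± 184 CPM in shNC and 2473 ± 24 in sh812 (SD, n = 2; 0.23, edgeR adjusted p = 0.0113), and missed the threshold once each library's trend on transcript length, described below, was removed (0.15, adjusted p = 0.0724). The sh812 values of these genes stood close together and above both shNC values.

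RPL5 and RPL11, which with the 5S rRNA form the particle that restrains MDM2, were chosen here for that role. RPL5 read 672 and 751 CPM in shNC and 812 and 813 in sh812 (0.19, edgeR adjusted p = 0.0366). RPL11 read 529 and 543 against 631 and 601 CPM (0.20, adjusted p = 0.022). With the length trend removed, neither passed (0.11 for both, adjusted p = 0.219 for RPL5 and 0.176 for RPL11), nor did they with scaling by library totals only (adjusted p = 0.0777 and 0.0516).

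The 3 members with the highest log2 fold changes belong to the small subunit. RPS26, which contacts the mRNA near the exit channel, read 208 and 226 CPM in shNC and 293 and 280.1 in sh812 (0.40 ± 0.061, edgeR adjusted p = 8.62e-05), and the groups were far apart relative to either within-group difference. RPS12 read 348 and 468 CPM in shNC and 519 and 544 in sh812 (0.38 ± 0.083, adjusted p = 0.00383). RPS21 read 238 and 314 against 360.3 and 354 CPM (0.37 ± 0.080, adjusted p = 0.00345). DESeq2 did not call RPS12 (adjusted p = 0.270) or RPS21 (adjusted p = 0.237). In RPS12 and RPS21, in contrast to RPS26, the difference between the 2 shNC libraries was larger than the step from shNC replicate 2 to the lower sh812 library.

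RPSA, the ribosomal protein also known as the laminin receptor precursor, read 1768 and 2064 CPM in shNC and 2440.04 and 2395 in sh812 (0.34, edgeR adjusted p = 0.000816). RPS2, a substrate of the methyltransferase PRMT3, read 1098 and 1235 against 1488 and 1458 CPM (0.34, adjusted p = 0.000498). RPS28 read 386 and 447 against 524 and 529 CPM (0.34, adjusted p = 0.000964). All 3 showed a higher level in both sh812 libraries, with shNC replicate 1 lowest.

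RPS24, a small subunit gene mutated in some patients with Diamond-Blackfan anaemia, had the highest level per transcript length of all members, 5071 CPM per kilobase in shNC. It read 3197 and 3233 CPM in shNC and 3897 and 3797 in sh812 (0.26 ± 0.052, edgeR adjusted p = 0.0020). Its shNC libraries were among the most alike of any member, and its pair ratios were 0.29 and 0.23. RPS27, a zinc finger protein, read 474 and 495 against 598 and 572 CPM (0.27, adjusted p = 0.00272). RPS6, the substrate of S6 kinase that is widely used as a readout of mTOR activity, read 660.0 and 718 CPM in shNC and 774 and 775 in sh812 (0.17, adjusted p = 0.058) and did not pass the threshold.

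**Figure D2:**
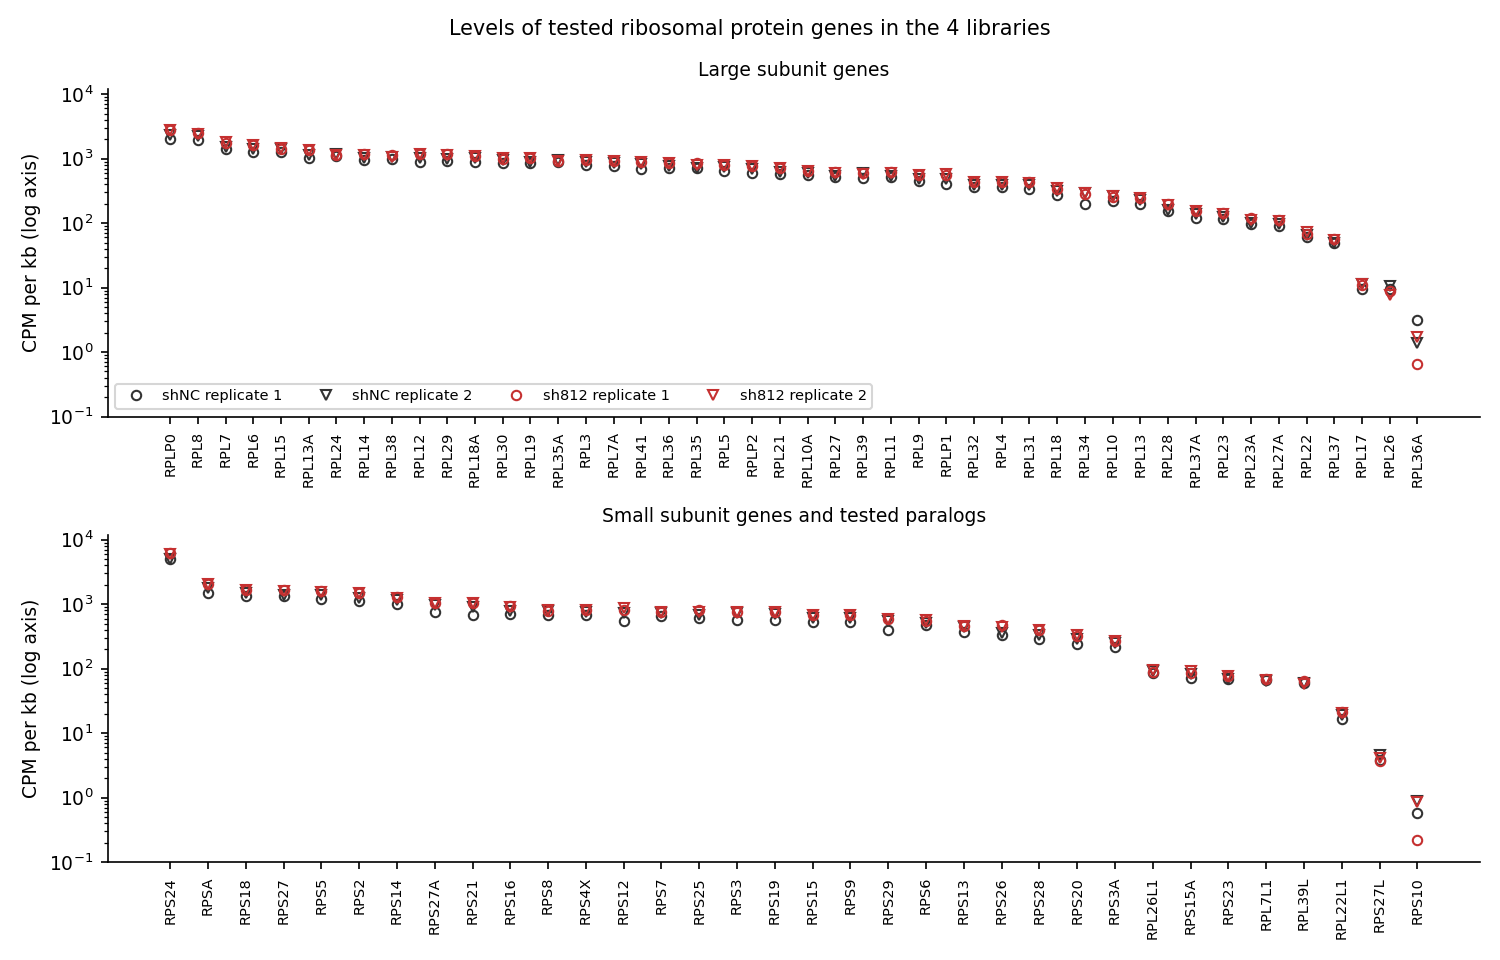
Levels of tested members in the 4 libraries, as CPM per kilobase of a representative transcript on a log axis, for large subunit genes (top) and small subunit genes with paralogs (bottom). Most subunit genes lie between 49.9 and 5071 CPM per kilobase in shNC, and RPL17, RPL26, RPL36A and RPS10 lie far below.

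A few well expressed subunit genes had estimates near 0. They were chosen here for their low values. RPL35A, a large subunit gene also linked to Diamond-Blackfan anaemia, read 485 and 521 CPM in shNC and 510 and 501 in sh812 (log2 fold change 0.0074 ± 0.057, edgeR adjusted p = 0.96). RPL24, which forms a bridge to the small subunit, read 673 and 725 against 716 and 711 CPM (0.029 ± 0.057, adjusted p = 0.814). In both, the sh812 values fell between the 2 shNC values. RPL10, which joins the large subunit late in its maturation, read 513 and 616 against 592 and 606 CPM (0.086, adjusted p = 0.469). RPL39, a small protein that lines the exit tunnel, read 200.03 and 239.7 against 239 and 231 CPM (0.094, adjusted p = 0.433). RPL38 read 417 and 464 against 497 and 454 CPM (0.11, adjusted p = 0.298). In all 5 genes the groups overlapped, and missing the threshold does not show that their levels were equal.

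None of the tested paralogs passed the threshold. RPS27L, a p53-responsive copy of RPS27, read 24.4 and 29.5 CPM in shNC and 23.9 and 26.2 in sh812 (-0.10 ± 0.10, edgeR adjusted p = 0.602), beside 0.27 for RPS27. RPL39L, a copy of RPL39 most abundant in testis, read 45.2 and 45.7 against 48.6 and 43.3 CPM (0.014, adjusted p = 0.946). RPL7L1, whose product works in pre-rRNA processing, read 255 and 242 against 262 and 252 CPM (0.048, adjusted p = 0.683), beside 0.27 for RPL7. These 3 had overlapping groups. RPL26L1 read 58.6 and 64.4 against 62.8 and 67.4 CPM (0.084, adjusted p = 0.54), also with overlap. RPL22L1, whose splicing and level are repressed by RPL22, read 36.4 and 41.9 against 46.6 and 44.6 CPM (0.22 ± 0.086, adjusted p = 0.0994), higher in both sh812 libraries without passing the threshold. Its partner RPL22 read 127 and 134 against 143 and 149.8 CPM (0.17, adjusted p = 0.0865). Whether paralogs and core genes differ was not tested, since the list is no sample of independent genes.

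The subunit genes RPL17, RPL26, RPL36A and RPS10 had unusually low counts. RPS10 had 14 and 18 counts in shNC and 5 and 20 in sh812, and RPL36A had 51 and 19 against 10 and 26. RPL26 had 279 and 259 against 238 and 210 counts, the only member with both sh812 libraries below both shNC libraries (-0.30 ± 0.16, edgeR adjusted p = 0.257). RPL17 had 264 to 302 counts. None of these 4 passed the threshold. In GENCODE 29 each shares exons on the same strand with another annotated gene, such as the readthrough genes RPL17-C18orf32, RPL36A-HNRNPH2 and RPS10-NUDT3, which had 0 counts in all libraries. Annotated pseudogenes of each held between 18 and 94 counts per library. Whether reads that overlap 2 genes were dropped in counting was not tested, and these 4 levels are uncertain. In all, 40 members overlap another gene's exon on either strand, and among the 42 tested members that do not, 31 rose with a median of 0.23.

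Agreement between replicates was examined over same-numbered libraries, although the labels do not say that a number marks a shared culture. The median log2 ratio over the 82 tested members was 0.30 for the replicate 1 pair (77 positive, 5 negative) and 0.14 for the replicate 2 pair (72 positive, 10 negative), with medians of -0.0087 and -0.0012 over all genes tested. In the large subunit the medians were 0.29 and 0.14, and in the small subunit 0.35 and 0.13. Crossing the numbers gave 0.14 for sh812 replicate 1 against shNC replicate 2 and 0.29 for sh812 replicate 2 against shNC replicate 1. These 4 ratios share libraries, and their size followed which shNC library was used, not which sh812 library.

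The control libraries differed from each other in these genes. shNC replicate 2 exceeded replicate 1 by a median log2 ratio of 0.16 over the tested members (0.13 in the large and 0.19 in the small subunit), while the 2 sh812 libraries differed by -0.0097. Among the 72 subunit genes with at least 20 CPM, shNC replicate 2 was above replicate 1 in 71, and the replicate 1 pair gave a higher ratio than the replicate 2 pair in all 72. Still, both sh812 libraries exceeded both shNC libraries in 67 of the 82 tested members, against 26.2% of all genes tested, and only RPL26 was lower in both, against 27.4%. A gap between the groups wider than the larger within-group difference was seen in 32 of 82 members, 24 of 46 in the large and 8 of 31 in the small subunit, against 10.9% of all genes, and in 0 members downwards, against 11.4%. The other 50 members had a gap no wider than that, or none. Such a gap upwards was also seen in 35 of 77 tested mitochondrial ribosomal protein genes (45.5%, against 39% of members), and downwards in 0. Of those 77 genes, 56 were higher in both sh812 libraries and 1 was lower in both.

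**Figure D3:**
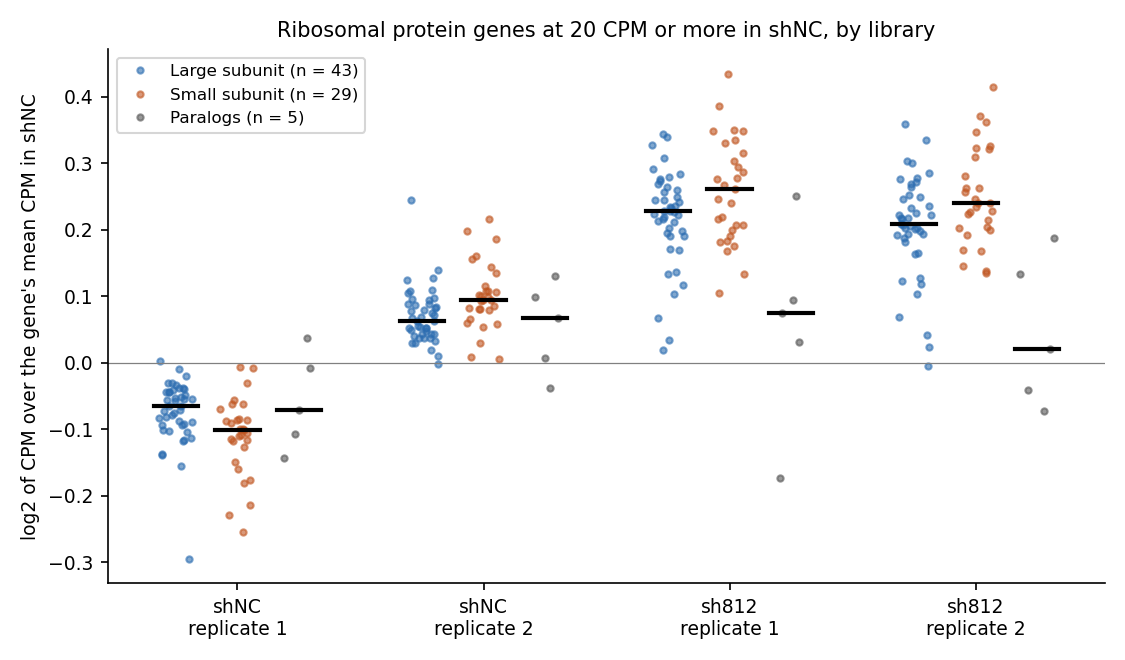
Log2 ratio of each gene's CPM in a library to its mean CPM in shNC, for the 77 members at 20 CPM or more, with a black bar at the median of each class. shNC replicate 1 lies below shNC replicate 2 in nearly all subunit genes, and both sh812 libraries lie above both in most.

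The genes with the widest split between controls show how this bears on single values. RPL34 read 105 and 153 CPM in shNC and 148 and 156 in sh812, so its groups overlapped, its ratio was 0.49 in the replicate 1 pair and 0.024 in the replicate 2 pair, and its log2 fold change of 0.24 ± 0.098 did not pass (edgeR adjusted p = 0.128). Its adjusted p was 0.0203 with the replicate number as a block. RPS29, a small zinc-binding protein, read 117 and 162 against 175 and 174 CPM (0.33, edgeR adjusted p = 0.0175), with ratios of 0.59 and 0.11. It lost its call in DESeq2 (adjusted p = 0.41) and with the length trend removed (adjusted p = 0.0635). At the other end, RPL37 read 384 and 383 against 439 and 418 CPM (0.16, adjusted p = 0.0715), and RPS23, at the decoding centre, read 236 and 238 against 269 and 260.0 CPM (0.16, adjusted p = 0.0779). Their shNC libraries were nearly equal, their pair ratios were 0.19 and 0.13 in both genes, and neither passed the edgeR threshold in the main fit. With the length trend removed both passed in edgeR, RPL37 at 0.26 (adjusted p = 0.0031) and RPS23 at 0.19 (adjusted p = 0.0278).

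**Figure D4:**
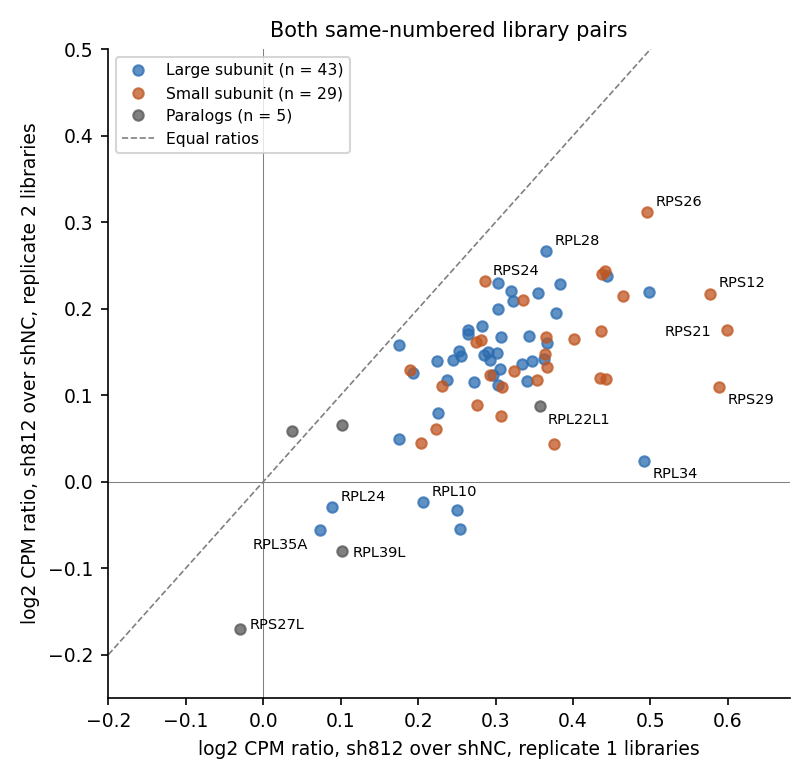
Log2 CPM ratio of sh812 over shNC in the replicate 1 libraries (horizontal) and the replicate 2 libraries (vertical) for the 77 members at 20 CPM or more. All 72 subunit genes lie below the dashed line of equal ratios, and 67 of them are positive in both pairs.

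Single libraries were then left out. Without either shNC library the spread came from the sh812 pair alone, and the lone shNC library was assumed to vary likewise. Among the 72 subunit genes at 20 CPM or more, the median absolute log2 difference was 0.023 within the sh812 pair. It was 0.17 within the shNC pair. Those fits may therefore understate the spread of the controls, and their calls add no support to the main fit. Without shNC replicate 1 the members' median was 0.14 with 48 called higher (5.24% of all genes), and without shNC replicate 2 it was 0.30 with 71 called higher (9.5% of all genes). Without sh812 replicate 1 or 2 the median held at 0.22, but the calls dropped to 12 and 15, since the spread then came from the shNC pair alone and the lone sh812 library was assumed to vary likewise. Of all genes, 1.46% and 1.55% were called higher in those fits. No member was called lower in any of these fits.

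Ribosomal protein transcripts are short, and the changes over all genes followed transcript length. The members' median transcript was 776 bases, against 2571 over all tested genes, with GC contents of 49.5% and 48.7%. Over 16627 genes with a model, the log2 fold change had a Spearman correlation of -0.22 with length, and the ratio of shNC replicate 2 to replicate 1 one of -0.17. Both are descriptions across genes that share the same libraries. Among other genes above a log2 CPM of 4, the median log2 fold change was 0.20 in the bin around 493 bases. It was 0.17 around 687 bases, 0.15 around 957 bases and -0.12 around 13557 bases. The members' median length lies between the bins around 687 and 957 bases, and their median log2 fold change was 0.22.

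With each library's trend on length removed, the members' median was 0.15 and 30 were called higher, of which 28 were among the 55, beside 5.65% of all genes. The removed trend was fitted over all tested genes with a model, at any level, so it need not equal that of the better expressed genes above. With the trends on length and GC removed, 33 were called higher, 31 of them shared, beside 6.05% of all genes. RPLP0, RPSA, RPL28 and RPS26 still passed with the length trend removed, with log2 fold changes of 0.26, 0.26, 0.39 and 0.31. RPL5, RPL8, RPL11 and RPS29 were among the 27 members that lost their call. RPL37 and RPS23, with representative transcripts of 7686 and 3437 bases, gained one. Within the members, the change had a Spearman correlation of -0.018 with length (n = 82). RPL28, with a representative transcript of 4796 bases, was among the highest. In all, 7 members had a representative transcript over 3000 bases, up to 7686 for RPL37. Whether the cells expressed these long forms was not tested, so the correlation, the removed trends and the levels per kilobase depend on the transcript chosen. The part of length in the rise was not tested beyond these values.

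**Figure D5:**
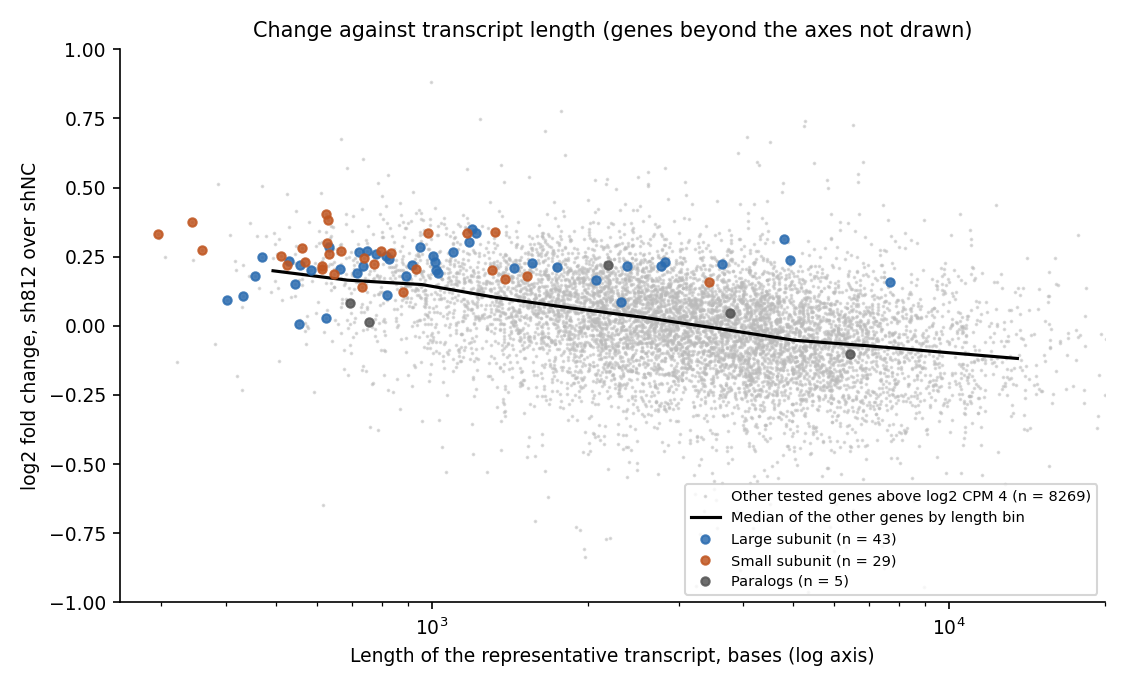
Log2 fold change, sh812 over shNC, against the length of the representative transcript on a log axis. Grey dots are other tested genes above a log2 CPM of 4, the black line is their median by length bin, falling from 0.20 at 493 bases to -0.12 at 13557 bases, and most subunit genes lie above the line.

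Among other properties, of the 28 tested members with a small nucleolar RNA gene inside them, 20 rose (median 0.21), and of the 54 without, 35 rose (median 0.22). GGACT, a sequence favoured by METTL3, was counted on the transcript strand and occurred in 45 of 82 member transcripts (54.9%), against 85% of all tested genes. Per kilobase of pooled transcripts it occurred 0.891 times in members and 0.986 times in all tested transcripts. In members that rose this rate was 0.977, and in those that did not it was 0.763. By subunit it was 1.06 in the large and 0.723 in the small. The pooled rate gives long transcripts more weight. The median rate of single transcripts was 0.577 per kilobase in members and 0.925 in all tested genes. The share of transcripts with any match was 54.5% in members that rose and 55.6% in those that did not. A match to these letters does not show a methylated site. Ribosomal protein pseudogenes, 1254 rows in all, held 0.0665% and 0.0704% of counts in shNC and 0.0805% and 0.0797% in sh812.

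Among ribosomal genes outside the name rule, RPL36AL, a near copy of RPL36A, rose from 193 ± 4.4 to 224 ± 4.8 CPM (SD, n = 2; log2 fold change 0.22, edgeR adjusted p = 0.0184). With the length trend removed it did not pass (0.12, adjusted p = 0.162), nor with scaling by library totals only (adjusted p = 0.0505). The estimate was 0.21 for FAU, fused to a ubiquitin-like protein (adjusted p = 0.069), and 0.16 for the scaffold RACK1 (adjusted p = 0.0816), neither past the threshold. In all 3 both sh812 libraries were higher than both shNC libraries, as in 26.2% of all genes tested.

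Of 60 ribosome biogenesis genes, 8 rose and 1 fell, beside 5.43% and 5.42% of all genes, with a median of 0.11. With scaling by library totals only, 5 rose and 3 fell, beside 3.34% and 7.9% of all genes. FBL, the methyltransferase of the nucleolar box C/D particles, rose by 0.36 (edgeR adjusted p = 0.000245) and RRP1 by 0.28 (adjusted p = 0.00594), while GTPBP4, a GTPase of large subunit assembly, fell by 0.22 on the log2 scale (adjusted p = 0.0296), a call lost with the length trend removed (adjusted p = 0.146). Of 10 chaperones and importers of ribosomal proteins, 2 rose: TSR2, the escort of RPS26, by 0.27 (adjusted p = 0.0119), and BCCIP by 0.23 (adjusted p = 0.0188, or 0.0727 with the length trend removed and 0.0574 with scaling by library totals only). The median of the 10 was 0.10, and the share of all genes called higher was again 5.43%.

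Among 12 tested mRNAs known to carry a TOP tract but encoding other proteins, 3 rose, beside 5.43% of all genes. The median over the 12 was 0.13. EEF1A1, which delivers aminoacyl-tRNA, rose from 7173 ± 583 to 8474 ± 31 CPM (SD, n = 2; 0.24, edgeR adjusted p = 0.00646), and EEF1B2, its exchange factor, from 288 ± 28 to 344 ± 2.9 CPM (0.25, edgeR adjusted p = 0.0106, or 0.0672 with the length trend removed). The third, NAP1L1, rose by 0.19 (adjusted p = 0.0244, or 0.0635 with scaling by library totals only). Of 14 regulators of ribosomal protein genes or TOP mRNAs, 1 rose and 1 fell, beside 5.43% and 5.42% of all genes. Their median was -0.067, and 0.018 with the length trend removed. MYC, which drives ribosome production, rose from 167 ± 0.43 to 219.6 ± 4.4 CPM (0.40, edgeR adjusted p = 7.7e-05), and GABPA fell by 0.25 on the log2 scale (adjusted p = 0.0257, or 0.09 with the length trend removed). LARP1 and MTOR, named here for their role, stood at -0.017 (adjusted p = 0.912) and -0.092 (adjusted p = 0.397), not past the threshold.

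Mitochondrial ribosomal protein genes, whose products form a separate ribosome inside mitochondria, were the most similar group by name. Of 77 tested, 25 rose and 0 fell, beside 5.43% and 5.42% of all genes, with a median of 0.17. At an unadjusted p under 0.05, 37 were higher and 0 lower, against 11.9% and 12.9% of all genes. With the length trend removed 16 rose (median 0.11), beside 5.65% of all genes. With scaling by library totals only 14 rose (median 0.12), beside 3.34% of all genes. MRPL36 rose from 37.7 ± 0.69 to 52.6 ± 3.5 CPM (SD, n = 2; 0.48, edgeR adjusted p = 0.000337) and MRPS6 from 58.7 ± 5.7 to 76.6 ± 0.73 CPM (0.38, edgeR adjusted p = 0.00163). Their medians in the replicate pairs were 0.23 and 0.11, so here too the replicate 1 pair gave the higher ratio. A tract was found at the start of 6 of 69 of these genes (8.7%), against 69.6% of the cytosolic members. Whether the cytosolic and mitochondrial genes differ in their change was not tested.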

How the data were processed

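Poly(A) RNA libraries of PC3 cells (2 shNC, 2 sh812) were made with a dUTP method and sequenced as paired reads, per the labels' protocols. Per the submitters' processing notes, fastp, STAR 2.7.1a, featureCounts and DESeq2 were used with hg38. The strand setting, the annotation release and the counted unit (reads or pairs) are not given in the sources used here. The authors deposited raw counts per gene for 60544 genes.

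The test was edgeR 4.0.16's quasi-likelihood test (R 4.3.3) on all 4 libraries, with TMM factors and no covariate. The filterByExpr function kept 16802 genes, and p-values were adjusted by Benjamini-Hochberg over these. SE was derived from the F statistic. CPM values were computed from the deposited counts with TMM-adjusted library sizes. An exact permutation test of 2 against 2 libraries cannot go below p = 0.333, so none is given. Lengths, GC contents and GGACT counts came from 1 representative transcript a gene in GENCODE 29 (GRCh38), and starts from RefSeq (GRCh38.p14). Exon overlaps used all GENCODE 29 transcripts of each gene. Small nucleolar RNA genes were counted over the whole span of the gene on the same strand. The fitting code was tested on simulated data. Replicates differed beyond sampling noise (chi-square per gene 8.43 for shNC, 4.51 for sh812), so each library counted as 1 replicate.

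Genes were named by rule: METTL3, the 12 called members with the smallest p, the 3 members with the highest and 3 with the lowest change, the 4 highest and 4 lowest per length, the 4 with the largest and 4 with the smallest shNC difference, paralogs with partners, and the 2 called genes with the smallest p of each other list. Some genes that the rule selects, and some cell type markers, are not reported here. Every other gene given was chosen after its values were seen. Members and lists were chosen with earlier results of these data known.

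Alternatives were RLE, upper quartile and no scaling factors, TMM factors without the members, other low-count filters, DESeq2 1.42.0, limma-voom (limma 3.58.1), the replicate block, removal of length and GC trends, and each library left out.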

Additional observations from a re-analysis of the deposited data

How the results depend on the processing

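The members called higher numbered 53 with RLE factors, 55 with upper quartile factors or TMM factors without the members, 59 with no low-count filter, 55 at a mean CPM of at least 1, 51 with DESeq2 and 58 with limma-voom, and 0 were called lower in any alternative. With library size alone, 42 were called higher, and over all genes 561 were called higher and 1328 lower, against 912 and 910 with TMM. The replicate block gave 57 members and 2001 genes of all tested. Deviations of same-numbered libraries had a correlation of 0.0367 over 12282 genes, so the numbers give no sign of pairing, and apart from RPL34 the block changed no call among the members named by rule.

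Removal of the length trend, or of the length and GC trends, gave 30 and 33 members called higher, large subunit medians of 0.148 and 0.149, and replicate 1 pair medians of 0.193 and 0.190, an alternative for the pairs that was chosen after seeing the data. In the same order the paralog median turned to -0.0085 and -0.0077, RPL26L1 to -0.0085 and -0.0077, RPL39L to -0.081 and -0.078, and the regulators' median to 0.018 and 0.021. RPL39 turned to -0.000773 with both trends removed, and RPL39L to -0.031 with library size alone. None of these was called.

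Without each replicate in turn, all called genes ranged from 587 to 3252, members called higher from 12 to 71, their median from 0.143 to 0.297, the large subunit median from 0.149 to 0.283, the small subunit median from 0.126 to 0.340 and the paralog median from -0.0078 to 0.101. Directions turned without shNC replicate 1 for RPL10 (-0.041 to 0.23 over these fits), RPL34 (-0.011 to 0.53) and RPL39 (-0.031 to 0.24), without shNC replicate 2 for RPS27L (-0.24 to 0.043), and without sh812 replicate 1 for RPL39L (-0.071 to 0.094) and RPS10 (-1.69 to 0.26). The cause was not tested. RPS10 and RPL36A had at most 51 counts in any library, so their estimates are uncertain.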
